A study of Rattus norvegicus with 27 samples.

Results

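Forebrain cortical and striatal marker genes are 7 of the 17321 genes in the count table: Tbr1, Cckbr, Bcl11b, Meis2, Ppp1r1b, Rgs9 and Drd2. They were found by gene symbol, and all 7 had enough counts to be tested. The members were chosen on their measured values in these same animals: Meis2 and Cckbr for a higher level in males, and the others because they accompany or contrast with that pattern. Differences between males and females in these genes are therefore given as a description, with no test.

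Punches of the interpositus nucleus (IP), a deep nucleus of the cerebellum, were taken from 27 Long-Evans rats on postnatal day 70 and their messenger RNA was sequenced. The labels name the strain and no transgene or altered allele. Normally reared rats (no treatment, NT) were 5 females and 7 males. Limited bedding rats (LB) were 7 females and 8 males, kept with their dam on wire mesh with little nesting material from postnatal day 2 to 9 and reared normally afterwards. Punches were taken across adjacent sections, so a library can hold tissue from beside the nucleus, in a share that may differ between animals. Pups were cross-fostered, and the labels do not tie animals to litters. Animals are named here by group and sample title.

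The cerebral cortex and striatum are parts of the forebrain, whereas the large neurons of the IP send the output of the cerebellum to the brainstem and thalamus. Excitatory neurons of the cortex are set up by transcription factors such as Tbr1 and Fezf2. Spiny projection neurons of the striatum are known for a dense dopamine signalling machinery, which includes dopamine receptors and DARPP-32. Several of these genes are also used outside the forebrain: Tbr1 and Meis2 are known from developing neurons of the cerebellar nuclei, and Meis2 from the midbrain.

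Total counts per animal ranged from 11836684 to 24169170, with a median of 16034036. Levels are CPM, counts scaled to a library of 1000000, on library sizes scaled by the TMM method of edgeR. A gene was taken as detected from 3 counts, which is 0.1249 to 0.26 CPM depending on the library, and as expressed from 1 CPM. Granule cell markers summed to at least 1790 CPM and Purkinje cell markers to at least 2325 CPM in every library. Deep nucleus neuron markers (Spp1, Slc17a6, Nefh, Nefm, Slc6a5 and Kcng4) summed to between 601 and 4128 CPM. Most of this sum was Nefh, Nefm and Kcng4, which were at 257, 143 and 74.6 CPM or more in every animal. Spp1 and Slc17a6 had medians of only 2.84 and 2.77 CPM, so the sum says little about them. Slc17a6, the vesicular glutamate transporter that defines the excitatory projection neurons of these nuclei, was at only 0.28 CPM in NT male 4111 and at 380 CPM in NT male 6112.

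The promoters of Tbr1 and Cckbr are shown because over the animals Cckbr followed Tbr1 more closely than it followed any other member. The sequences are from RefSeq (build GRCr8), with 4 of the 7 members matched by symbol in the promoter table used here, and each is the 250 bases upstream of the annotated start on the plus strand, written 5′ to 3′. Capitals mark matches to the MEIS motif TGACAG, the T-box motif GGTGTGA or the NeuroD E-box CATCTG, searched on both strands. These motifs do not overlap in the windows shown.
Tbr1, chr3:66759553-66759802: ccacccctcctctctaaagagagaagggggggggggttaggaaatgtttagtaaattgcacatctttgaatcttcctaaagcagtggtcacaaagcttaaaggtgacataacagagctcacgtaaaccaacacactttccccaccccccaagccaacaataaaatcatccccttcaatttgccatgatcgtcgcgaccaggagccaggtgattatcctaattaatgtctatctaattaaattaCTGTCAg
Cckbr, chr1:169183328-169183577: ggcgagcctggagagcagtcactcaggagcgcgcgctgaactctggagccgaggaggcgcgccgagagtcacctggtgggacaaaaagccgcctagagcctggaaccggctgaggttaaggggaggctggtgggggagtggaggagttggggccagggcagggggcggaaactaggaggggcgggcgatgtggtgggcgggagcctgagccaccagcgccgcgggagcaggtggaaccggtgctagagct
The Tbr1 window held 1 MEIS match, which begins 7 bases before the start, and the Cckbr window held no match to the 3 motifs. Among 33469 promoter windows of the same length, 15.8% held the MEIS letters, 3.22% the T-box letters and 14% the E-box letters. The windows also differed in base composition, with 44% G and C in Tbr1 and 68.8% in Cckbr. A match is a description of letters and not of binding.

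Tbr1, the T-box transcription factor of glutamatergic cortical neurons, spans chr3:47677465-47687564 on the plus strand of the rn6 genome, with 9 exons. It was detected and above 1 CPM in all 27 animals, with a median of 2.53 CPM. NT females had 1.29, 1.33, 1.58, 3.49 and 4.33 CPM, and LB females ranged from 1.03 to 3.79 with a median of 2.36 CPM. NT males ranged from 2.03 to 163 CPM with a median of 3.30, and LB males from 1.79 to 106 CPM with a median of 6.45.
The high values belonged to 5 males, of which 2 were NT and 3 were LB. NT males 6111 and 3113 had 163 and 101 CPM, and LB males 122, 7122 and 9123 had 106, 32.3 and 19.03 CPM. LB male 123 followed with 9.99 CPM, and the next animal was NT female 2012 with 4.33 CPM. No female had more than 10 CPM. The sexes overlapped, since the other 9 males lay between 1.79 and 3.86 CPM.

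Cckbr, the brain receptor for the peptide cholecystokinin, spans chr1:170262218-170272298 on the plus strand of rn6, with 5 exons. It was low or undetected in most animals, with a median of 0.346 CPM. NT females had 0, 0.0492, 0.0536, 0.259 and 1.53 CPM, and LB females ranged from 0.0603 to 0.883 with a median of 0.217 CPM. NT males ranged from 0.0688 to 38.6 CPM with a median of 1.13, and LB males from 0 to 18.5 CPM with a median of 2.55.
The gene was detected in 20 of 27 animals and was above 1 CPM in 10, of which 9 were males. The same 5 males led: 3113 with 38.6 CPM, 6111 with 33.2, 122 with 18.5, 7122 with 16.8 and 9123 with 14.1 CPM. NT male 6112 came next with 6.05 CPM, then LB male 123 with 3.69 and NT female 2012 with 1.53 CPM. The step from 9123 to 6112 was 2.34-fold, whereas 3113 and 6111 differed by 1.16-fold.

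Bcl11b, a zinc finger transcription factor of deep-layer cortical neurons and also of striatal projection neurons, spans chr6:131834097-131926272 on the minus strand of rn6. It marks both regions and so was counted with neither. NT females had 0.107, 0.689, 1.32, 1.39 and 1.42 CPM, and LB females ranged from 0.706 to 3.52 with a median of 1.36 CPM. NT males ranged from 0.839 to 50.7 with a median of 2.07 CPM, and LB males from 0.265 to 32.8 with a median of 3.68 CPM.
It was led by the same 3 males as Tbr1, with 50.7 CPM in 6111, 32.8 in 122 and 23.4 in 3113. NT male 6112 came next with 12.9 CPM although its Tbr1 was only 3.86 CPM. LB males 7122 and 9123 had 10.6 and 4.81 CPM, the latter not far above LB female 8024 with 3.52 CPM.

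Meis2, a homeodomain transcription factor known from striatal precursors and from other brain regions, spans chr3:107560197-107760589 on the minus strand of rn6, with 12 exons. The SD of its log2 level over animals was 2.48 and ranked 7 of 12107 genes tested, against a median SD of 0.355. Meis2 was chosen for a higher level in males of these same animals, so a wide spread follows in part from that choice. NT females had 0.107, 0.388, 0.591, 0.631 and 1.73 CPM, and LB females ranged from 0.0543 to 3.48 with a median of 0.434 CPM. NT males ranged from 0.28 to 99.7 CPM with a median of 21.9, and LB males from 0.265 to 49.5 CPM with a median of 8.57.
Meis2 reached at least 4 times its own median in 10 animals, all of them males, 5 NT and 5 LB. The highest was NT male 6112 with 99.7 CPM, followed by 6111 with 69.1, 122 with 49.5, 3113 with 38.3, 7122 with 37.3, 9123 with 29.4 and 3111 with 21.9 CPM. LB males 121 and 123 and NT male 4113 had 9.68, 7.45 and 8.40 CPM. The sexes overlapped here too: NT male 4111 and LB males 7121, 9121 and 9122 had between 0.265 and 0.961 CPM, below LB female 8021 with 3.48 CPM. In punches of mixed tissue, fewer cells of a type and less RNA per cell cannot be told apart.

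**Figure D1:**
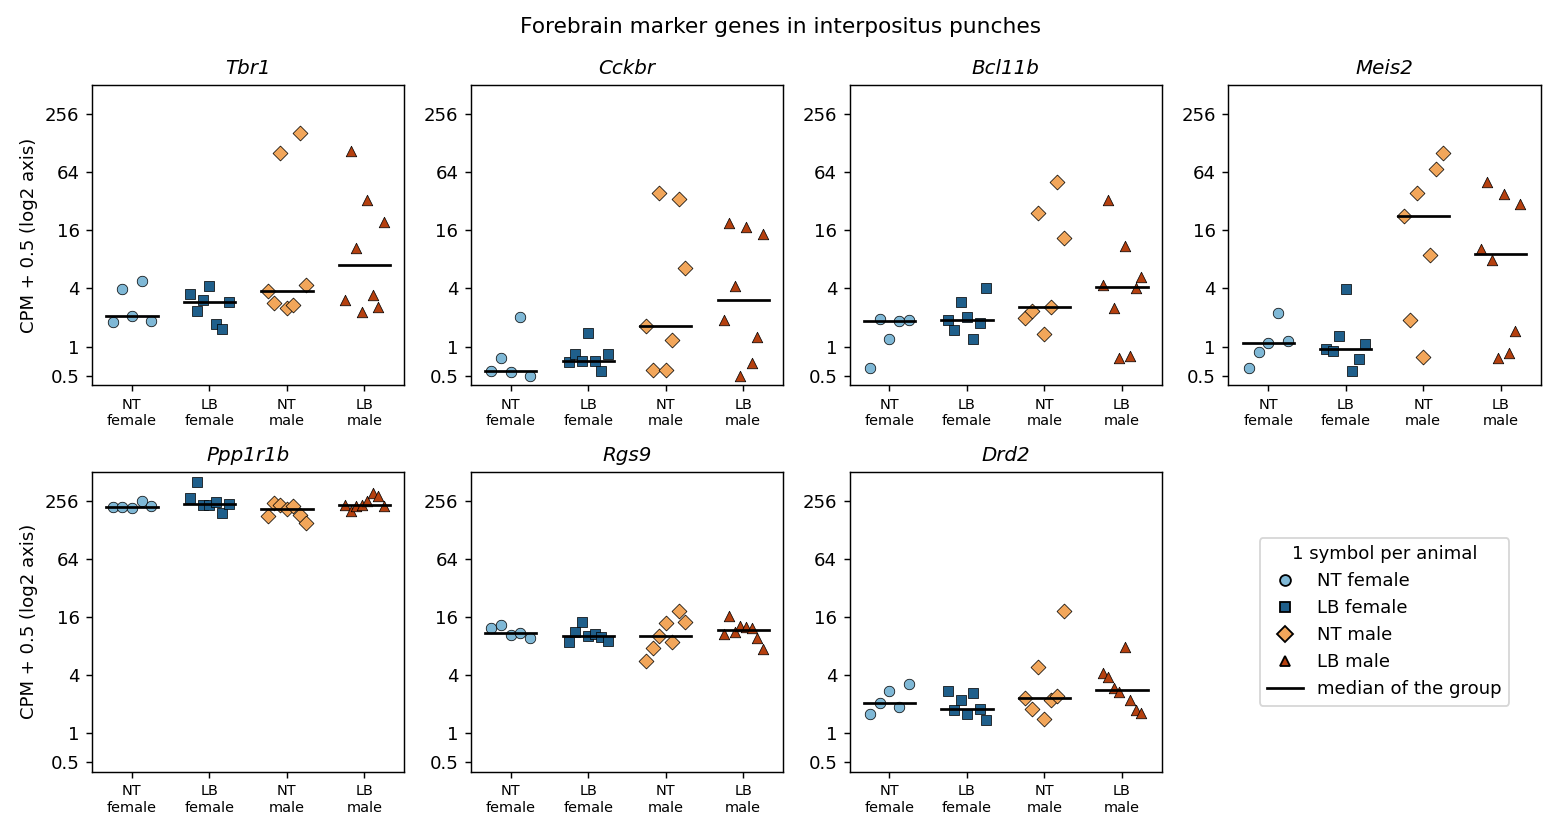
Level of each member in each animal, as CPM plus 0.5 on a log2 axis, by group (5 NT females, 7 LB females, 7 NT males and 8 LB males), with a bar at the group median. Tbr1, Cckbr, Bcl11b and Meis2 were high in some of the males only, whereas Ppp1r1b stayed between 149 and 398 CPM in every animal and Drd2 reached 17.9 CPM in 1 NT male.

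The striatal members Ppp1r1b and Rgs9 varied far less over animals than Tbr1, Cckbr, Bcl11b and Meis2. Members were chosen because they accompany or contrast with the pattern of Meis2 and Cckbr, so this difference follows in part from the choice. Ppp1r1b, which encodes DARPP-32, an inhibitor of protein phosphatase 1 that relays dopamine signals, spans chr10:86303727-86312768 on the plus strand of rn6. NT females had 215, 218, 219, 224 and 255 CPM, LB females ranged from 191 to 398 (median 239), NT males from 149 to 242 (median 212) and LB males from 198 to 306 CPM (median 231). All 4 groups overlapped. The highest and lowest animals differed by 2.67-fold, and the SD of its log2 level was 0.262, below that of 73.2% of the genes tested. The highest animal was LB female 5022, with a low Tbr1 of 1.83 CPM. The lowest was NT male 6112.

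Rgs9, which speeds the shut-off of G protein signalling downstream of dopamine receptors, spans chr10:97509971-97582188 on the minus strand of rn6, with 19 exons. NT females had 9.15, 9.99, 10.4, 11.7 and 12.7 CPM, LB females ranged from 8.37 to 13.8 (median 9.76), NT males from 5.12 to 17.97 (median 9.72) and LB males from 6.96 to 15.7 CPM (median 11.3). It was above 1 CPM in all 27 animals and its levels in the 4 groups overlapped. The top of the order was shared with Tbr1, with NT male 6111 at 17.97 and LB male 122 at 15.7 CPM. The Tbr1-rich males 3113 and 9123, however, had 9.72 and 6.96 CPM, the latter lower than every male but 3111 with 5.12 CPM.

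Drd2, the D2 dopamine receptor, spans chr8:53678777-53743642 on the plus strand of rn6, with 8 exons. NT females had 1.07, 1.38, 1.55, 2.26 and 2.71 CPM, LB females ranged from 0.865 to 2.23 (median 1.27), NT males from 0.909 to 17.9 (median 1.82) and LB males from 1.11 to 7.41 CPM (median 2.32). NT male 6112 stood alone at 17.9 CPM, 2.41-fold above LB male 7122. NT male 3113 had 4.39 CPM and LB males 121 and 122 had 3.69 and 3.30 CPM. NT male 6111, the animal richest in Tbr1, had 1.96 CPM and lay within the range of the females.

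Levels of different genes were compared per exon length, as RPKM (CPM per 1000 bases of exon). Measured by Tbr1 against the mean of Rgs9 and Drd2, the cortical gene was above the striatal genes in 5 of 27 animals, all males. The ratio was 10.2 in NT male 6111, 9.15 in NT male 3113, 6.97 in LB male 122, 2.95 in LB male 9123 and 2.12 in LB male 7122. LB male 123 had a ratio of 0.959, close to equal levels. In females it ranged from 0.118 to 0.457. NT male 6112 had a ratio of 0.161, in the female range, with Drd2 and Meis2 at their highest.

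Which side dominated in summed lists depended on the genes in the sum. The cortical list held 13 genes in the table and the striatal list 15, the members included and Bcl11b in neither. The summed cortical RPKM was above the summed striatal RPKM in 15 of 27 animals: 1 of 5 NT females, 3 of 7 LB females, 5 of 7 NT males and 6 of 8 LB males. The count was 0 of 27 with the members alone (Tbr1 and Cckbr against Ppp1r1b, Rgs9 and Drd2), and 27 of 27 without Ppp1r1b and Nrgn. Ppp1r1b made up 61.5 to 92.7% of the striatal sum. This gene was at 149 CPM or more in every animal, while Drd2 had a median of 1.74 CPM. The striatal sum is thus largely the level of Ppp1r1b and not a measure of striatal tissue. Lamp5 and Neurod6 made up 66.8 to 81.5% of the cortical sum in females.
The sums therefore separated only some animals. The ratio of cortical to striatal sum was 8.63 in NT male 6111 and stayed between 0.799 and 1.08 in females. The striatal sum ranged from 122 to 246 RPKM over all animals, and the cortical sum from 124 to 1467 RPKM. Nrgn, a calmodulin-binding protein of forebrain neurons, made up as much as 79.8% of the cortical sum, in LB male 7122.

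**Figure D2:**
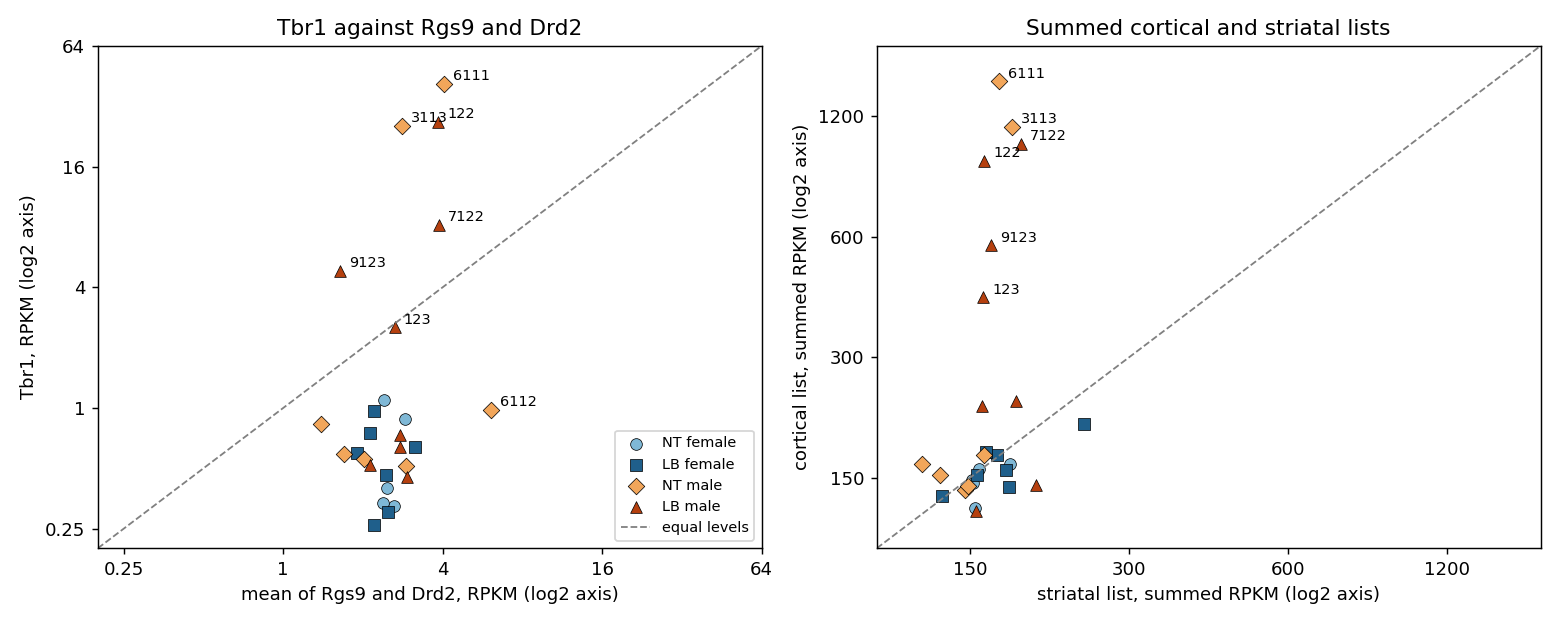
Left: Tbr1 against the mean of Rgs9 and Drd2, both as RPKM on log2 axes; right: summed RPKM of the cortical list against that of the striatal list. Each symbol is an animal, shaped and coloured by group, and the dashed line marks equal levels; in the left panel 5 males lie above the line and LB male 123 lies just under it at a ratio of 0.959.

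Some cortical genes that are not members were high in the same animals, while others were present everywhere. Of 8 such genes, 4 were at 4 times their own median or more in each of 6111, 3113, 122, 7122 and 9123: Fezf2, Nrgn, Hs3st2 and Slc30a3. Fezf2, which specifies corticospinal neurons, had 38.7 CPM in 6111 against a median of 0.400. Nrgn had 1490 CPM in 6111 against a median of 32.7, and was as low as 3.16 CPM in NT female 1011. LB male 123 had 2 of these genes at that level, LB male 9122 and NT male 6112 had 1 each, and the other animals had 0.
Neurod6, Lamp5, Cux2 and Tle4 were above 1 CPM in all 27 animals and never reached 4 times their median. Lamp5 ranged from 63.4 to 218 CPM and Neurod6 from 33.7 to 127.7 CPM, both lowest in NT male 6112. Dkkl1 was not detected in any animal.

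Among the striatal genes that are not members, the defining ones stayed low. Isl1 was detected in 3 animals with at most 1.23 CPM, and Six3 in 4 animals with at most 1.74 CPM, in 6112. Drd1 and Adora2a, the D1 dopamine receptor and the adenosine receptor that pairs with D2 neurons, reached at most 1.67 and 1.66 times their median. Gpr6, whose median of 0.112 CPM is below the floor of 3 counts, was at more than 4 times that median in 9 animals, among them all 5 Tbr1-rich males, with 5.38 CPM in 3113, 3.70 in 122, 2.63 in 6111, 1.26 in 9123 and 1.21 in 7122. Syndig1l reached that multiple of its median in 7122, 3113, 6112 and 122, with at most 14.3 CPM, in 7122.

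**Figure D3:**
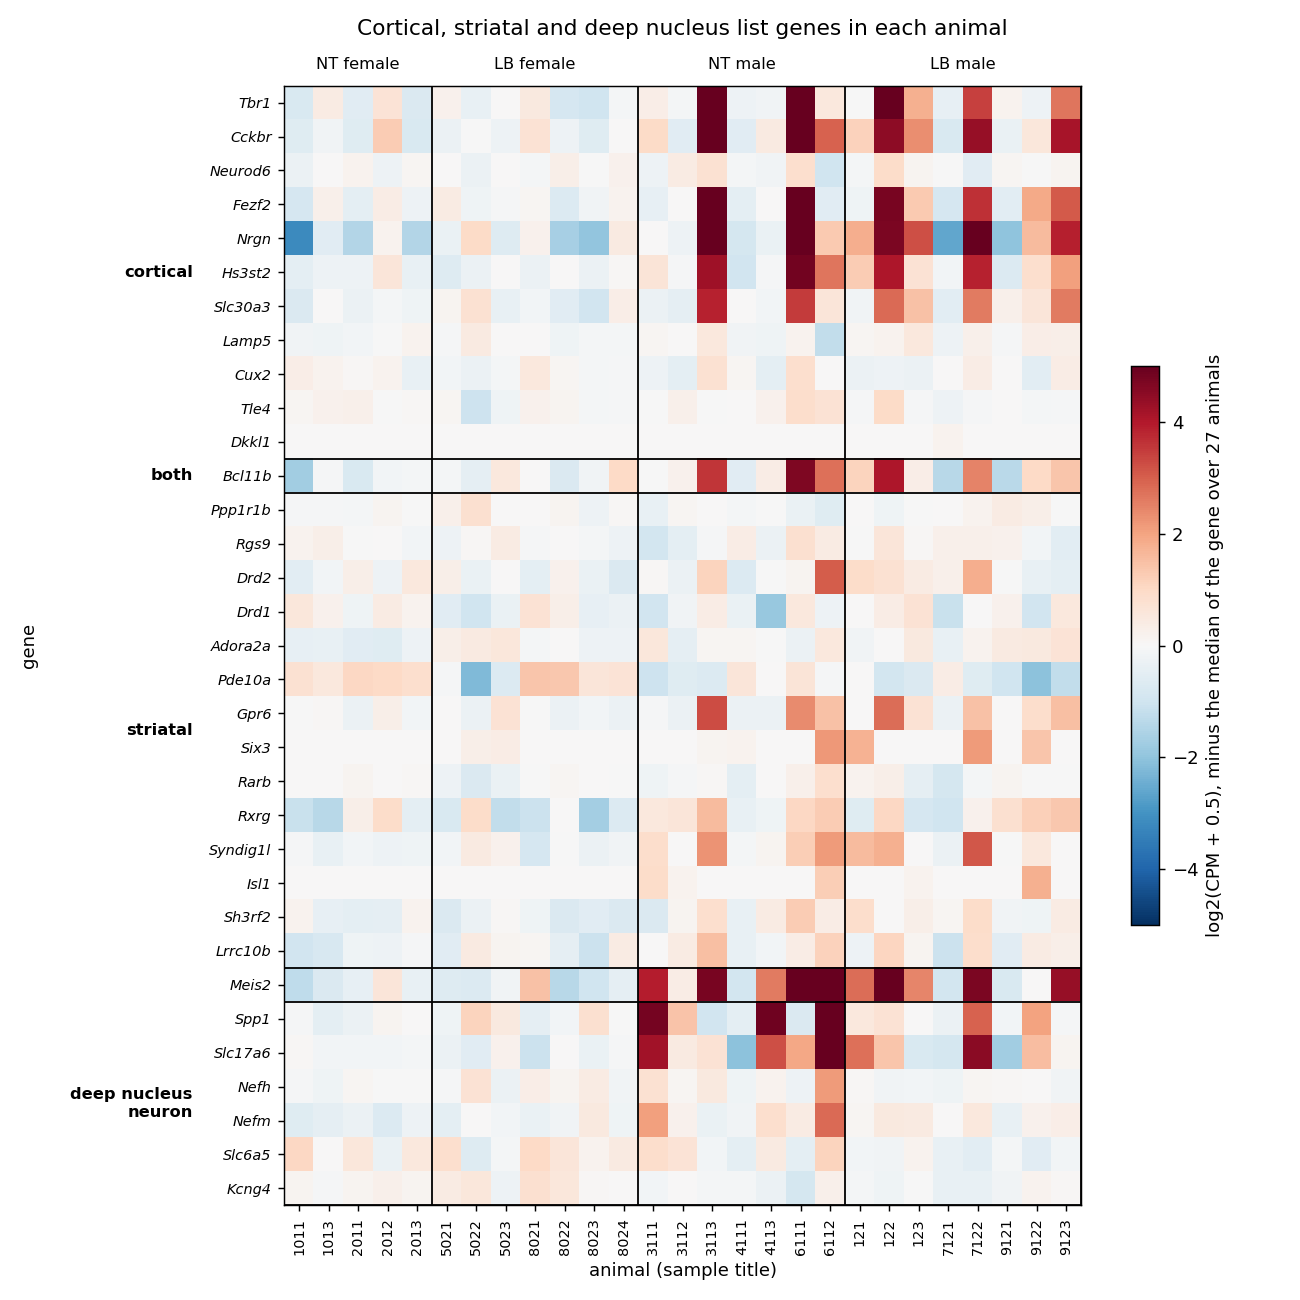
Log2 of CPM plus 0.5 for 11 cortical genes, Bcl11b, 14 striatal genes, Meis2 and the deep nucleus neuron genes (rows) in the 27 animals (columns, by group), each minus the median of the gene over all animals. Tbr1, Cckbr, Fezf2, Nrgn, Hs3st2 and Slc30a3 are red in NT males 3113 and 6111 and LB males 122, 7122 and 9123, Ppp1r1b and Rgs9 stay pale, and Meis2 is red in these animals and also in NT males 6112 and 3111.

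Cckbr followed Tbr1 closely. Over the 27 animals the Pearson correlation of their log2 levels was 0.94 and the Spearman correlation 0.86, and without the 2 animals farthest from the median of Tbr1 it was 0.93. Cckbr had a correlation of 0.89 with Bcl11b, 0.49 with Drd2, 0.25 with Rgs9 and -0.29 with Ppp1r1b. These values describe the same libraries and rest in large part on a few males. The members were chosen because they accompany or contrast with one pattern in these animals. High and low correlations among them therefore follow in part from that choice. In RPKM, Cckbr was 0.322 to 1.37 times Tbr1 in the 5 Tbr1-rich males, 0.679 times in LB male 123 and 2.88 times in NT male 6112.

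Meis2 followed the cortical genes in part. Its correlation was 0.90 with Cckbr, 0.84 with Bcl11b and 0.78 with Tbr1, and 0.61 with Drd2, 0.09 with Rgs9 and -0.49 with Ppp1r1b. The correlation with Drd2 was 0.44 without NT male 6112 and LB male 7122. These correlations, too, are among members chosen on their pattern over the same animals. In RPKM, Meis2 was 0.530, 0.593 and 0.657 times Tbr1 in 3113, 6111 and 122. It was 1.62 and 2.16 times Tbr1 in 7122 and 9123, and 1.05 times in LB male 123.
A further 4 males had much more Meis2 than their Tbr1. Meis2 was 36.2 times Tbr1 in NT male 6112, 9.33 times in NT male 3111, 5.39 times in LB male 121 and 5.35 times in NT male 4113. The highest ratio in the other animals was 2.16, in 9123. In females the highest was 1.29, in LB female 8021.

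**Figure D4:**
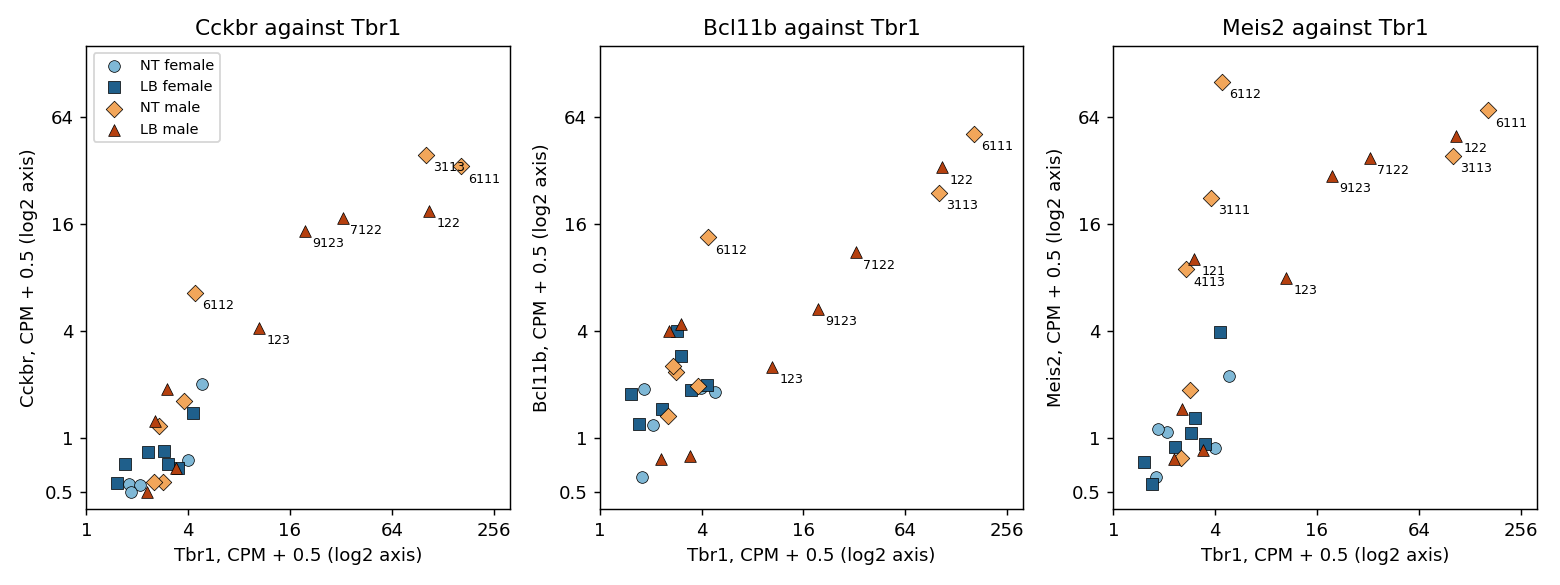
Cckbr, Bcl11b and Meis2 against Tbr1 in the 27 animals, as CPM plus 0.5 on log2 axes, with symbols by group and sample titles beside the high animals. Cckbr is higher where Tbr1 is higher, with NT male 6112 above the line of the other animals, whereas Meis2 is high in NT males 6112 and 3111 at a Tbr1 of only 3.86 and 3.30 CPM.

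These 4 males also had high levels of Slc17a6, which reached 380 CPM in 6112, 59.9 in 3111, 30.1 in 4113 and 21.6 in 121 against a median of 2.77 CPM over all animals. LB male 7122, with 74.9 CPM, had both Slc17a6 and the cortical genes. Spp1, a matrix protein of large projection neurons, had 441 CPM in 6112, 98.0 in 4113 and 90.7 in 3111 but only 4.25 in 121, against a median of 2.84 CPM. Nefm, a neurofilament subunit, had 1683 CPM in 6112, 972 in 3111, 418 in 4113 and 248 in 121 against a median of 233 CPM. In the same order, Nefh had 1414, 543, 360 and 337 CPM against a median of 319. Slc6a5 had 45.4, 39.1, 28.5 and 18.7 CPM against 20.8, and Kcng4 had 164, 124, 111 and 128 CPM against 136. LB male 9122 had 12.8 CPM of Spp1 and 9.06 of Slc17a6 with only 0.961 CPM of Meis2. The Pearson correlation of Meis2 with Slc17a6 was 0.71, and 0.60 without 6112 and 7122. With Nefm it was 0.63, and with Spp1 only 0.44. The correlation of Cckbr with Slc17a6 was 0.46.
Genes of the midbrain tectum list moved with some of the same animals at low levels, with a sum of 10.6 CPM in LB male 7122, 7.06 in NT male 6112 and 4.98 in LB male 121. Hindbrain Hox genes summed to at most 0.780 CPM, in NT male 3111. Tyrosine hydroxylase (Th), the enzyme that defines dopamine neurons, had at most 4.82 CPM, in 6112, and the dopamine transporter Slc6a3 at most 0.336 CPM. The part of these tissues in the level of Meis2 was not tested.

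**Figure D5:**
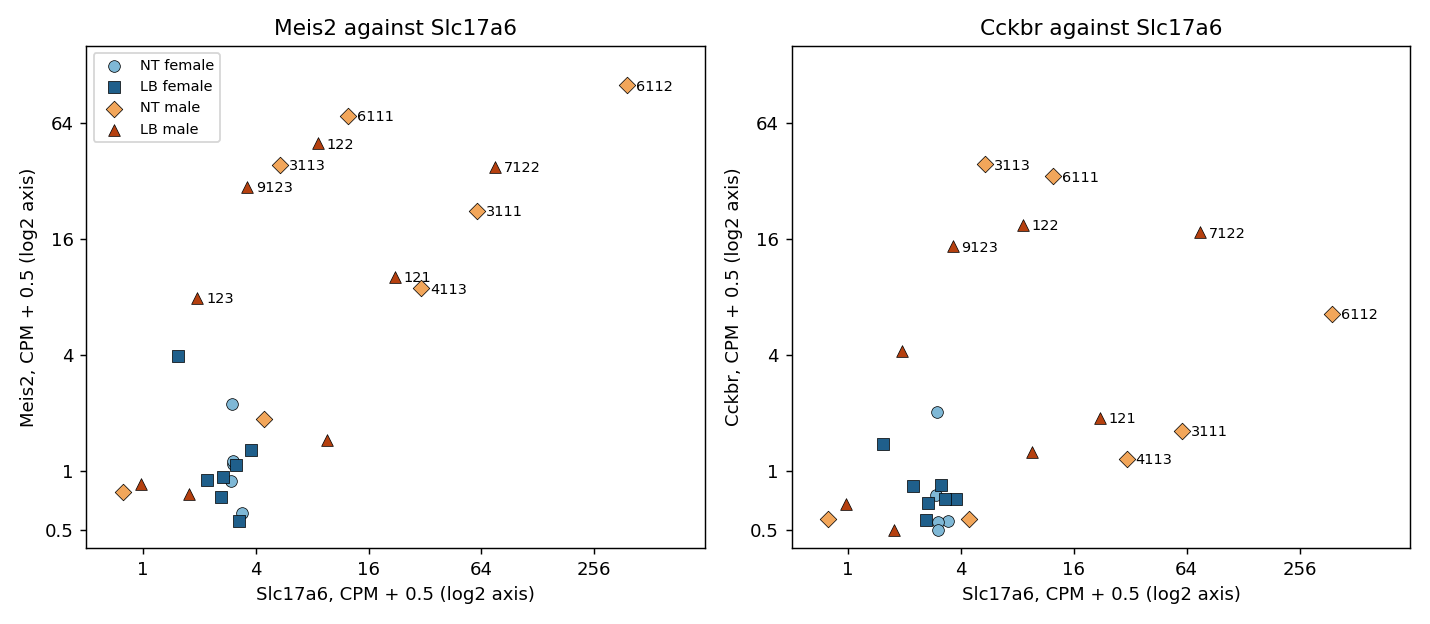
Meis2 and Cckbr against Slc17a6 in the 27 animals, as CPM plus 0.5 on log2 axes, with symbols by group. NT males 6112, 3111 and 4113 and LB male 121 are high in Slc17a6 and Meis2 together, while their Cckbr is between 0.666 and 6.05 CPM.

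The levels of other tissue in the punch also varied between animals, only in part along with Tbr1. Granule cell markers summed to 2097 CPM in 3113, 2804 in 6111, 2894 in 122, 3688 in 7122 and 3930 in 9123, against 2944 to 6269 CPM in females, and the lowest value was 1790 CPM in 6112. NT male 3111 and LB male 9122, which were low in Tbr1, had 3566 and 3136 CPM of granule cell markers. Choroid plexus markers summed to 6457 CPM in NT male 4113, which was low in Tbr1, and to only 10.8 CPM in 6111. Hippocampal markers summed to at most 12.5 CPM, in 3113. Most of this sum was C1ql2, at 3.47 to 10.3 CPM in every animal, so it is not a measure of hippocampal tissue. Lct had 1.89 CPM in 3113 against a median of 0.226. The markers Dsp, Tdo2 and Fibcd1 of the list were either absent from the table or at most 0.189 CPM. The part of these tissues in the levels of the members was not tested.

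High and low animals stood side by side within sets of animals with the same title apart from its final digit. Beside NT male 6111 with 163 CPM of Tbr1 was 6112 with 3.86, and beside 3113 with 101 CPM were 3111 and 3112 with 3.30 and 2.34 CPM. Beside LB male 122 with 106 CPM were 121 and 123 with 2.52 and 9.99 CPM, and beside 7122 with 32.3 CPM was 7121 with 1.79 CPM. Beside 9123 with 19.03 CPM were 9121 and 9122 with 2.91 and 2.06 CPM. Digits shared within a set went with sex and treatment in these titles, so each set lay within a single group. What else the shared digits stand for is not given in the sources used here.

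The study used treatment and sex as factors in its expression analysis, and the members were not chosen on the contrast of LB with NT. None of the 7 members passed the test between LB and NT, in males or in females, by the quasi-likelihood test of edgeR, with p adjusted by Benjamini-Hochberg over 12107 genes. In males 0% of all genes tested were past the threshold of 0.05 (1211 genes at an unadjusted p under 0.05, and 1 member), and in females 0.00826%, which is the single gene Itgb4 (961 genes and 0 members at an unadjusted p under 0.05). DESeq2 made 3 and 6 calls in males and females, and limma-voom 0 and 3. The p-values set each difference against the spread between animals within groups, and every group overlapped for every member. Limited bedding was assigned by cage, whereas the test takes each animal as a replicate, and animals reared together may not be independent. The consensus correlation within sets of shared title digits was 0.17 in limma-voom.
Meis2 averaged 16.9 ± 19.2 CPM (SD, n = 8) in LB males and 34.1 ± 37.8 CPM (SD, n = 7) in NT males, a log2 fold change of -1.02 (SE 0.881, edgeR adjusted p = 0.651). Without the 5 Tbr1-rich males that value was -2.81, with an edgeR adjusted p of 0.401. Cckbr averaged 6.93 ± 8.07 CPM (SD, n = 8) in LB males and 11.4 ± 16.9 CPM (SD, n = 7) in NT males, a log2 fold change of -0.72 (SE 0.982, edgeR adjusted p = 0.780). The SD exceeded the mean in each of these groups.
Tbr1 had a log2 fold change of -0.85 (SE 0.900, edgeR adjusted p = 0.707) in males, and 0.44 without the 5 Tbr1-rich males. Bcl11b had -0.87 (SE 0.793, edgeR adjusted p = 0.666) and Drd2 -0.57 (SE 0.497, edgeR adjusted p = 0.656), the latter 0.52 without NT male 6112. Rgs9 had 0.05 (SE 0.199, edgeR adjusted p = 0.924). Ppp1r1b was the member nearest to a difference, with 245 ± 35.1 CPM (SD, n = 8) in LB males and 203 ± 33.7 CPM (SD, n = 7) in NT males, a log2 fold change of 0.27 (SE 0.128, edgeR adjusted p = 0.492).

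In females the levels of Meis2 and Cckbr were near the floor of detection and gave little precision. Meis2 averaged 0.855 ± 1.18 CPM (SD, n = 7) in LB and 0.690 ± 0.618 CPM (SD, n = 5) in NT, a log2 fold change of 0.31 (SE 1.31, edgeR adjusted p = 0.955). Without LB female 8021 it was -0.77. Cckbr had a log2 fold change of -0.24 (SE 1.52, edgeR adjusted p = 0.970), which became 1.84 without NT female 2012. The other 5 members had adjusted p-values between 0.743, for Ppp1r1b, and 0.983, for Tbr1.

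Neither regional list held a gene past the threshold between LB and NT. In males, 0 of 12 cortical genes tested and 0 of 12 striatal genes tested were past the threshold, with median log2 fold changes of -0.53 and -0.25 against -0.02 over all genes. In females the counts were again 0 of 12 and 0 of 12, with medians of 0.00 and -0.09 against 0.02. At an unadjusted p under 0.05 there was no cortical gene and 1 striatal gene in each sex: Ppp1r1b in males, and in females Adora2a with a log2 fold change of 0.62 (SE 0.220, edgeR adjusted p = 0.576).

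Between males and females the log2 fold changes of the members were large in NT, where 15.2% of all genes tested were past the threshold. They were 5.59 for Meis2, 4.85 for Cckbr, 4.04 for Tbr1 and 3.76 for Bcl11b, and 1.27 for Drd2, -0.01 for Rgs9 and -0.15 for Ppp1r1b. In LB, where 0.248% of genes were past the threshold, the values were 4.26 for Meis2, 4.37 for Cckbr, 3.29 for Tbr1 and 2.12 for Bcl11b. The difference between NT and LB in these values was not tested. Because the members were picked on this contrast, no calls are given for them.
Leaving out the 5 Tbr1-rich males took the NT values to 0.20 for Tbr1, 2.03 for Cckbr and 1.96 for Bcl11b, while Meis2 stayed at 5.19. In LB the values became 0.75 for Tbr1, 1.81 for Cckbr, 0.25 for Bcl11b and 2.09 for Meis2. These males were set apart by their level of Tbr1, so the fall in Tbr1 follows from that choice. A fall in genes that follow Tbr1 over the animals, such as Cckbr, follows from it as well. Of the NT males, 5 of 7 had more Meis2 than every NT female, 3 of 7 more Cckbr and 2 of 7 more Tbr1. Of the LB males, 5 of 8 had more Meis2 than every LB female, 5 of 8 more Cckbr and 4 of 8 more Tbr1.

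The genes most like each member over the 27 animals were taken from all genes tested. For Cckbr they were Cobl (r = 0.98), Ngef (0.97), Lrfn2 (0.97), Lhx2 (0.97) and Syt17 (0.97), with Spearman correlations of 0.89 to 0.92. Lhx2, a LIM homeodomain factor of the developing cortex, had a median of 0.895 CPM and reached 45.2 CPM. For Tbr1 they were Wnt10a (0.98), Psrc1 (0.97), Plk2 (0.97), Ovol2 (0.96) and Enthd1 (0.96), and their Spearman correlations of 0.68 to 0.84 were lower.
For Meis2 they were Sult1d1 (0.95), Gpc5 (0.95), Adhfe1 (0.94), Zfhx4 (0.94) and Npy5r (0.93), none of which was on the lists of Tbr1 or Cckbr. The lists of Tbr1 and Cckbr shared no gene with each other either. For Bcl11b they were Slit1 (0.95), Hs3st2, Myo5b, Scn3b and Gabra5 (0.93 each). Gabra5, a GABA-A receptor subunit that is abundant in forebrain, had a median of 4.47 CPM and reached 124 CPM.
The same was done for the striatal members. For Ppp1r1b the most alike were Irf2bp1 (0.91) and Tor2a (0.90), and without LB female 5022 and NT male 6112 these values were 0.83 and 0.82. For Rgs9 the most alike was Acp2 (0.77). For Drd2 it was Scg2 (0.82), which became 0.55 without 6112 and 7122, followed by Nfatc2, Tacr1, Syndig1l and Cmpk2. No member, cortical or striatal, was among the nearest 5 genes of any other member, so this does not set the striatal members apart.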

How the data were processed

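The authors homogenized IP punches, made KAPA mRNA Hyperprep libraries, sequenced them and deposited raw counts per gene for 27 animals, without normalization. The submitters' processing notes name STAR 2.5.2b, featureCounts of Subread 1.5.1 and the rn6 genome; strand and multi-mapping settings are not given in the sources used here. No member shares exon bases with another listed gene.

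The members and gene lists were chosen with earlier results of these data known. From the counts, CPM (edgeR 4.0.16, TMM) and RPKM (exon length of the table) were computed. All 27 animals entered 1 quasi-likelihood model with 4 groups in R 4.3.3, fitted to the 12107 genes that filterByExpr retained at a minimum count of 10 and a minimum total of 15. Benjamini-Hochberg adjusted p-values under 0.05 were called. Correlations used log2(CPM + 0.5). The model was tested on simulated data. Named genes are the members, the marker lists (79 entries) and the 5 genes most like each member; Itgb4 was named after its values were seen. Some genes of the lists enter the sums and counts but are not reported here by name. Figures were drawn with matplotlib 3.10.9.

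Alternatives were DESeq2 1.42.0, limma-voom (limma 3.58.1), library size alone, no filter, only the groups compared, a random block for title beginnings, other thresholds, gene sums and pseudocounts, and leaving out each animal. A model without the 5 males above 10 CPM of Tbr1 was added after seeing the data. Counts limit precision: 3 counts are 0.1249 to 0.26 CPM, which covers counting error only.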

Additional observations from a re-analysis of the deposited data

Results flagged for a closer look

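Within each of the 4 groups, the highest and lowest animals were compared with the nearest other animal by the gap over the range of log2(CPM + 0.5) for the 7 members. Chance flags about 1 in 20 groups, and 2 of 28 combinations of member and group were flagged. Meis2 in LB female 8021 was 3.48 CPM, against 0.796 CPM in the next LB female, with a gap of 0.569 of the range (n = 7). Ppp1r1b in NT female 2012 was 255 CPM, against 224 CPM in the next NT female, with a gap of 0.773 of the range (n = 5). In the groups of males no animal met the criterion.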

How the results depend on the processing

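The number of genes past the threshold was 3 with DESeq2 for LB against NT in males, and 6 with DESeq2 and 3 with limma-voom in females. Leaving out each animal gave 0 to 0 in males and 1 to 7 in females, with 7 without LB female 8021 and 2 without LB female 8023. The number of animals with the cortical sum above the striatal sum was 15, 20 with CPM in place of RPKM, 0 with the members alone and 27 without Ppp1r1b and Nrgn.

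Changes of LB against NT in sign, none of them past the threshold, came in 9 of 238 values in males and 10 of 237 in females. In females Meis2 was -0.084 with limma-voom and -0.010 with the random block, and Cckbr 0.89 with either. In males Tbr1 was 0.0071 with the random block and 0.44 without the 5 Tbr1-rich males. Leaving out each animal gave ranges of -0.77 to 1.02 for Meis2, -0.74 to 1.84 for Cckbr and -0.28 to 0.24 for Tbr1 in females. In males the ranges were -1.97 to 0.14 for Tbr1, -1.11 to 0.018 for Cckbr, -0.067 to 0.19 for Rgs9 and -0.94 to 0.52 for Drd2. The cause was not tested. The lowest adjusted p of a member under any setting was 0.293 in males and 0.481 in females. No paired analysis was possible because the labels give the animals no replicate numbers that are shared between groups.

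The animals at or above 1 CPM numbered 20 for Bcl11b and 25 for Drd2, and 12 and 11 at 2 CPM. Meis2 and Cckbr each had at most 12 counts in 10 of 12 females, which limits the precision of their differences between LB and NT females.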
